A study of Mus musculus with 4 samples.

Results

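The 9 genes described here, Lgr5, Rnf43, Znrf3, Apc, Axin1, Axin2, Gsk3b, Ctnnb1 and Tcf7l2, belong to the Wnt and beta-catenin pathway. They were chosen by name among 17963 autosomal gene names on a comparative genomic hybridisation array, a glass array that measures DNA copy number, and 88 of its 170305 probes carry one of these names. All 9 had at least 2 probes, and no filter on low values removed any of them. DNA came from liver tumours of 4 FAH-/- Trp53-/- mice, numbered 239, 240, 244 and 252 and labelled male, and it was set against a pool of liver DNA from 3 FAH+/+ Trp53+/+ littermates of matched sex. FAH completes the breakdown of tyrosine and p53, the product of Trp53, is a tumour suppressor, so every tumour mouse lacked both genes and the pool lacked neither. The tumour mice were kept on NTBC, a drug that blocks tyrosine breakdown upstream of FAH, at 7.5 mg/L in drinking water, later reduced to 2.5% of that dose for 6 months. The ages of the mice and any treatment of the pool were not used here.

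Every value below is the log2 ratio of tumour over pool. In diploid cells a gain of 1 copy would give 0.58 and a loss of 1 copy -1, and normal cells in a tumour sample bring both closer to 0. The share of tumour cells was not measured, so a change in few cells and a small change in all cells cannot be told apart. DNA carries no cell type markers, so the liver label was not checked against them. The pool counted as 1 control sample, so its own spread enters no error, and each tumour was 1 array with no dye swap, all 4 on 1 slide. The precision is limited by the number of arrays. Tumour 252 went against its male label: its median was 0.73 on chromosome X and -2.43 on chromosome Y, whereas tumours 239, 240 and 244 had X medians of -0.09, -0.11 and -0.30 and Y medians of -0.31, -0.14 and -1.20. All 9 genes are autosomal, and the tests and the differences of tumour 244 are also given without tumour 252.

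Wnt ligands bind Frizzled receptors and LRP co-receptors at the cell surface and keep beta-catenin from being degraded. Without a ligand, a cytoplasmic complex built on APC and axin lets the kinase GSK3 mark beta-catenin for destruction. Stabilised beta-catenin enters the nucleus and switches on target genes with TCF and LEF factors. In liver the pathway is active around the central veins, where it sets the metabolic zones of hepatocytes, and mutations that activate beta-catenin are frequent in liver cancer. Arrays of this kind measure copy number and not point mutations, methylation or expression.

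Some of the results that rest on few probes are shown with those probes. Positions are mm9 coordinates and sequences are those of the array's own annotation, 5′ to 3′, with every CG pair in capitals, and the strand is not given in the sources used here. No gene model of mm9 was used, so exons, introns and untranslated parts are not named. The first pair are the 2 probes of Ctnnb1 and stand for all that the array measured of that gene, at chr9:120853750-120853809 and chr9:120860336-120860395.
Ctnnb1 first probe: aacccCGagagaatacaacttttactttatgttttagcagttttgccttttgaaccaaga
Ctnnb1 second probe: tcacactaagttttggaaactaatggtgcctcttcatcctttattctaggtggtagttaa
The next 3 are neighbouring Znrf3 probes that lay low in all 4 tumours, at chr11:5212507-5212566, chr11:5220873-5220932 and chr11:5226587-5226646.
Znrf3 low probe a: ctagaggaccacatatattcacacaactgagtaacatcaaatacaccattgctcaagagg
Znrf3 low probe b: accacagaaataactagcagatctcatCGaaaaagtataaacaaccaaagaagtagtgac
Znrf3 low probe c: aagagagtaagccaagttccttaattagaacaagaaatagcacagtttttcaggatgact
The last is the Gsk3b probe with the highest value of all 88, at chr16:38214214-38214273, which was not well above background on all arrays and is shown because its value turned with the background correction.
Gsk3b highest probe: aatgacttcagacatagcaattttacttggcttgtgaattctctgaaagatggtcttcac

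Lgr5, a receptor for R-spondins and a Wnt target gene of pericentral hepatocytes, was measured by 12 probes at chr10:114894455-115022888. Its mean was 0.04, 0.03, -0.20 and 0.02 in tumours 239, 240, 244 and 252. Tumour 244 stood below the other tumours, which lay within 0.03 of each other. The 166 other probes within 1 Mb averaged -0.01, -0.03, -0.26 and -0.01 in the same tumours, and the whole of chromosome 10 averaged -0.25 in tumour 244. The gene therefore lay where its stretch of chromosome lay.

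Rnf43 and Znrf3 encode membrane ubiquitin ligases that remove Frizzled receptors and so dampen the signal. Rnf43, with 6 probes at chr11:87481291-87530273, measured -0.12, -0.05, 0.03 and -0.13 in tumours 239, 240, 244 and 252, with neighbours at 0.03, 0.03, 0.10 and 0.02. Znrf3, with 15 probes at chr11:5189323-5340999, measured -0.19, -0.12, -0.04 and -0.09, with neighbours at 0.02, 0.05, 0.13 and 0.08. On the mean of its probes each ligase gene lay below its neighbours in all 4 tumours. No neighbourhood reached the level of 0.2 used for a gain or the level of -0.2 used for a loss. Rnf43 was low through 2 of its 6 probes, which differed from the neighbours by -0.52 and -0.29 on average. Its other probes differed by -0.0005, -0.05, 0.01 and 0.18.

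The destruction complex gave both high and flat genes. Apc, its scaffold and a tumour suppressor, had 8 probes at chr18:34391522-34481637 with means of 0.07, -0.01, 0.45 and 0.09 in tumours 239, 240, 244 and 252. Gsk3b, its kinase, had 16 probes at chr16:38094828-38244818 with means of 0.12, 0.11, 0.41 and 0.02. Both genes were highest in tumour 244, and the other tumours lay at 0.12 or lower. The 148 neighbours of Apc averaged 0.00, 0.02, 0.36 and 0.03 in that order of tumours. The 159 neighbours of Gsk3b averaged 0.03, 0.12, 0.35 and 0.05. In tumour 244, chromosome 18 as a whole averaged 0.34 and chromosome 16 averaged 0.30, so both genes followed their chromosomes.

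The axins limit the assembly of that complex, and Axin2 is also a target of the pathway that feeds back on it. Axin1, with 5 probes at chr17:26284620-26328316, had -0.12, -0.07, -0.03 and -0.11 in tumours 239, 240, 244 and 252, with neighbours at 0.04, 0.09, 0.11 and 0.11. Axin2, with 3 probes at chr11:108787453-108802078, had 0.15, 0.05, -0.09 and -0.01, with neighbours at 0.11, 0.09, 0.13 and 0.08. Axin1 lay below its neighbours in all 4 tumours, and Axin2 in 3 of 4. Axin1 was low mainly through 2 of its 5 probes, which differed from the neighbours by -0.46 and -0.26 on average. Its other probes differed by -0.02, -0.10 and -0.01.

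Ctnnb1 encodes beta-catenin itself, and Tcf7l2 encodes TCF4, a DNA-binding partner of it. Ctnnb1 averaged -0.06, -0.16, -0.48 and -0.15 in tumours 239, 240, 244 and 252, with 166 neighbours at 0.01, 0.03, -0.16 and -0.07. Its first probe, shown above, had -0.07, -0.44, -0.52 and -0.40, and its second had -0.06, 0.12, -0.44 and 0.09. The second probe was low in tumour 244 only, whereas the first was low in 3 tumours. Tcf7l2, with 21 probes at chr19:55824370-55999358, had 0.07, -0.03, 0.07 and -0.01, with neighbours at 0.10, 0.04, 0.16 and 0.10. Its 4 tumours lay between -0.03 and 0.07. The SD of its own probes within a tumour ran between 0.17 and 0.32, which does not measure the error of a mean of 21 probes.

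**Figure D1:**
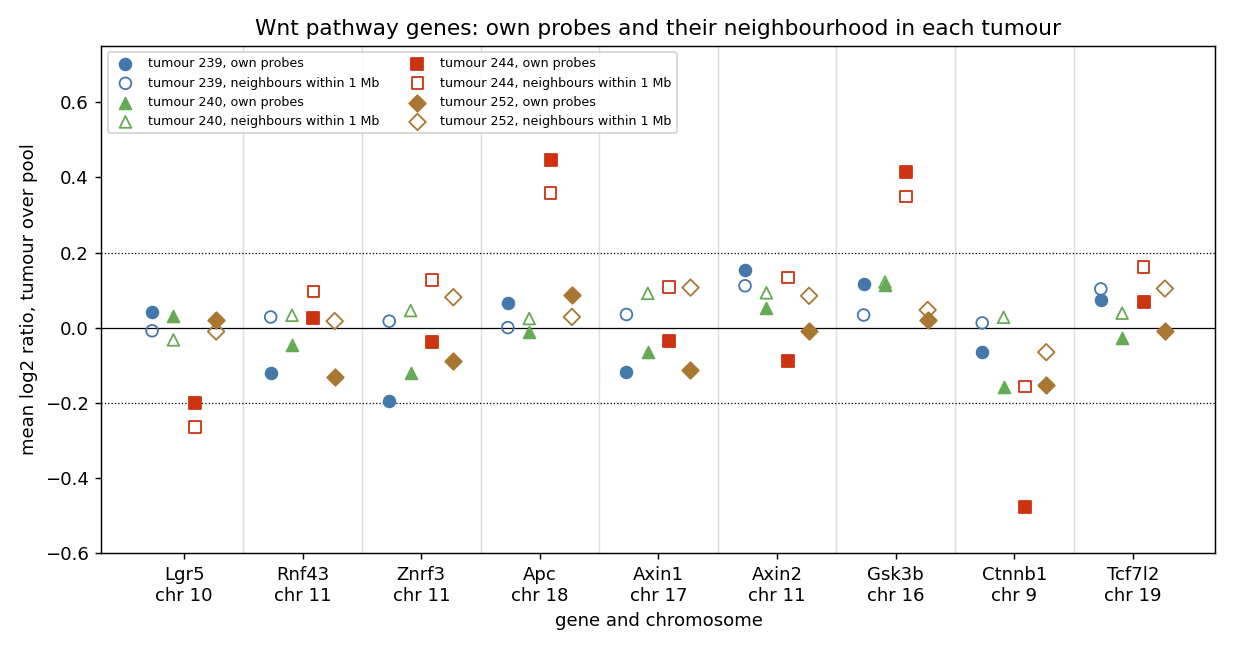
Mean log2 ratio of tumour over pool for each of the 9 genes in each tumour, beside the mean of the other probes within 1 Mb. Tumour 244 stands apart at Apc (0.45), Gsk3b (0.41), Lgr5 (-0.20) and Ctnnb1 (-0.48), while at Rnf43, Axin1 and Tcf7l2 the genes lie between -0.13 and 0.07 in all 4 tumours.

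Calling a neighbourhood of 0.2 or more gained and of -0.2 or less lost, 3 of the 36 gene-by-tumour pairs were called, all in tumour 244. Apc and Gsk3b lay in gained stretches and Lgr5 in a lost one. Over all genes, 7.45% of such pairs were gained and 8.91% lost, and in tumour 244 alone 20.1% of genes lay in gained and 26.4% in lost stretches. The share of genes in gained stretches was 4.26%, 1.72% and 3.75% in tumours 239, 240 and 252, and that in lost stretches was 4.48%, 1.86% and 2.87%. With 3 of 9 genes called in tumour 244, the Wnt genes were near that background, and the calls are no result about the pathway as such. With each array centred on the mode of running medians of 51 probes, an alternative chosen after the data were seen, the scale of tumour 244 moved by 0.10. Neighbourhoods then measured 0.26 at Apc, 0.25 at Gsk3b, -0.36 at Lgr5 and -0.25 at Ctnnb1, which added a lost stretch at Ctnnb1. With neighbours within 0.5 Mb Lgr5 measured -0.19 in tumour 244, which ended its call.

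The offsets that a probe shows on every array cancel when 1 tumour is set against the others. Apc averaged 0.45 in tumour 244 and 0.05 in the other tumours, a difference of 0.40, and 7 of its 8 probes were higher in tumour 244 than in every other tumour. Gsk3b averaged 0.41 in tumour 244 and 0.08 in the others, a difference of 0.33, with 14 of 16 probes higher than in every other tumour. On its 14 probes well above background on all arrays, a choice made after the data were seen, the difference was 0.30. Ctnnb1 averaged -0.48 in tumour 244 and -0.12 in the others, a difference of -0.35, with both of its probes the lowest. These were the 3 of 36 pairs that passed 0.3 in size. Lgr5 averaged -0.20 in tumour 244 and 0.03 in the others, a difference of -0.23, with 10 of 12 probes lowest in tumour 244.

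Neighbours moved with 3 of these genes by similar amounts. The neighbourhood of tumour 244 minus that of the others was 0.34 at Apc, 0.28 at Gsk3b and -0.25 at Lgr5. At Apc 128 of 148 neighbour probes were higher in tumour 244 than in every other tumour, at Gsk3b 131 of 159 were, and at Lgr5 139 of 166 were lower. At Ctnnb1 the neighbourhood differed by -0.15, with 92 of 166 neighbour probes lowest in tumour 244, so the difference at its 2 probes was larger than that around them. The difference between gene and neighbourhood at Ctnnb1 in tumour 244 was -0.32, against -0.08, -0.19 and -0.09 in tumours 239, 240 and 252. Chromosome 9 as a whole averaged -0.23 in tumour 244, which differed from the other tumours by -0.19.

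Against the background, 9.9% of all gene-by-tumour pairs passed 0.3 in size. By tumour the share was 11% in tumour 239, 4.14% in 240, 18.7% in 244 and 5.77% in 252. Neighbourhood differences past 0.2 in size, seen for 3 of 9 genes in tumour 244, were found for 43.2% of all genes in that tumour and for 3.12%, 0.00557% and 2.46% in tumours 239, 240 and 252. Without tumour 252 the differences in tumour 244 were 0.42 at Apc, 0.30 at Gsk3b and -0.37 at Ctnnb1, and that at Gsk3b fell just short of 0.3 before rounding. Lgr5 then differed by -0.24, and the neighbourhoods by 0.35 at Apc, 0.27 at Gsk3b, -0.24 at Lgr5 and -0.18 at Ctnnb1. With the running-median centring the gene differences at Apc, Gsk3b and Ctnnb1 were 0.30, 0.23 and -0.45, and with normexp background correction, which models the background from raw spot signals, 0.47, 0.31 and -0.25. None of these differences has a test, since each tumour is 1 sample. With normexp the first Ctnnb1 probe measured 0.17, -0.09, -0.18 and -0.05 in tumours 239, 240, 244 and 252. The second measured -0.53, -0.58, -0.88 and -0.60, with neighbours at -0.01, 0.00, -0.17 and -0.10. Over the 4 tumours Ctnnb1 then averaged -0.34, against -0.21 on processed signals, so its mean gap to the neighbours did not close. The lower probe in every tumour was the first on processed signals and the second with normexp. The size of the gap and the probe that carried it thus depended on the background correction.

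**Figure D2:**
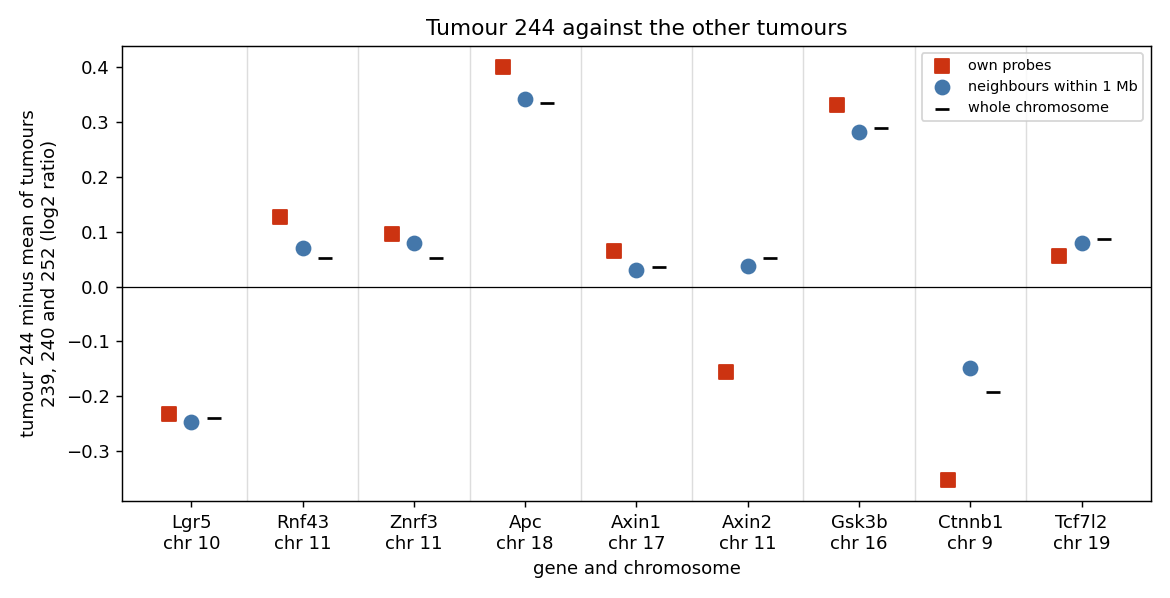
Log2 ratio in tumour 244 minus the mean of the other tumours for each of the 9 genes, beside the same difference for the probes within 1 Mb and for the whole chromosome. At Apc, Gsk3b and Lgr5 the gene, its neighbours and its chromosome lie together. At Ctnnb1 the gene lies at -0.35, its neighbours at -0.15 and its chromosome at -0.19.

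Averaged over the 4 tumours and tested against 0 with limma, 1 of 9 genes passed an adjusted p of 0.05, below 0, and 0 passed above, where Gsk3b alone had an unadjusted p under 0.05. Ctnnb1 was lower in tumours than in the pool, at -0.21 ± 0.18 (SD, n = 4; limma, adjusted p = 0.0483). That is 1 gene in 9 against 38.9% of all 17962 genes tested, 21.2% above 0 and 17.7% below. The share was lower with more probes, at 50.1% of genes with 1 probe, 42.4% with 2, 32.2% with 3 to 9 and 20.9% with 10 or more. A call on a 2-probe gene such as Ctnnb1 is near the background and says nothing particular about beta-catenin. The call was lost without tumour 240 (limma, adjusted p = 0.104), without tumour 244 (limma, adjusted p = 0.102) and without tumour 252 (limma, adjusted p = 0.0902). It was also lost with each array centred on its mode (limma, adjusted p = 0.0515) or on that of running medians (limma, adjusted p = 0.0705). With normexp background correction the call was kept and larger, at -0.34 (limma, adjusted p = 0.00162). In that setting 4846 genes passed below 0, against 3177 on processed signals.

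The other 8 genes did not pass. Gsk3b averaged 0.17 ± 0.17 and Apc 0.15 ± 0.20 (SD, n = 4 each; limma, adjusted p = 0.101 and 0.171), and both were highest in tumour 244. Znrf3 averaged -0.11 ± 0.07, Axin1 -0.08 ± 0.04 and Rnf43 -0.07 ± 0.07 (SD, n = 4 each). Lgr5 averaged -0.03 ± 0.12, Axin2 0.03 ± 0.10 and Tcf7l2 0.03 ± 0.05 (SD, n = 4 each). For these 6 genes the limma adjusted p ran between 0.171 for Znrf3 and 0.764 for Lgr5. Without tumour 252 none of the 8 passed, with a limma adjusted p between 0.10 for Gsk3b and 0.776 for Axin2. The median over the 9 genes was -0.03, beside 0.02 over all genes tested.

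Set against their own neighbours, 4 of 9 genes were lower by limma and 0 were higher, also at an unadjusted p under 0.05. Znrf3 differed by -0.18 ± 0.02 (SD, n = 4; limma, adjusted p = 0.00572) and Axin1 by -0.17 ± 0.03 (SD, n = 4; limma, adjusted p = 0.00798), each in 4 of 4 tumours. Ctnnb1 differed by -0.17 ± 0.11 (SD, n = 4; limma, adjusted p = 0.0341) and Rnf43 by -0.11 ± 0.04 (SD, n = 4; limma, adjusted p = 0.0337), also in 4 of 4 tumours. Over all genes 48.7% passed this test in either direction, so the count of 4 in 9, or 44.4%, is near that share. By direction, 44.4% of the 9 genes passed below and 0 above, against 22.9% below and 25.8% above over all genes. This difference by direction rests on 9 genes and was not tested. By number of probes the share was 56.6% with 1, 53.3% with 2, 45.4% with 3 to 9 and 30% with 10 or more. The median difference over the 9 genes was -0.08, beside 0.01 over all genes.

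Of the remaining genes, Tcf7l2 differed from its neighbours by -0.08 ± 0.04 and Axin2 by -0.08 ± 0.11 (SD, n = 4 each; limma, adjusted p = 0.0954 and 0.222). Lgr5 differed by 0.05 ± 0.02, Apc by 0.04 ± 0.06 and Gsk3b by 0.03 ± 0.05 (SD, n = 4 each; limma, adjusted p = 0.201, 0.334 and 0.530). Znrf3 and Axin1 kept their calls without tumour 239, 240, 244 or 252 in turn, at 0.0271 and 0.0396 (limma, adjusted p) without 252. Ctnnb1 lost its call without 240, 244 or 252 (limma, adjusted p = 0.111, 0.110 and 0.0582), and Rnf43 lost its call without any 1 of the 4 tumours (limma, adjusted p between 0.0612 and 0.124). With normexp background correction Znrf3 fell short of the threshold at -0.06 (limma, adjusted p = 0.0843), and Rnf43 lay at 0.03. With neighbours within 0.5 Mb Axin1 fell short at -0.09 (limma, adjusted p = 0.0730).

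Within Znrf3, 3 consecutive probes of 15, printed above as low probes a, b and c, span 14.1 kb. Probe a measured -0.41, -0.74, -0.76 and -0.67 in tumours 239, 240, 244 and 252. Probe b measured -0.50, -0.63, -0.54 and -0.65, and probe c -0.66, -0.54, -0.59 and -0.60. All 3 were low in every tumour, and their mean was -0.61 ± 0.06 (SD over 4 tumours), or -0.60 without tumour 252. The other 12 Znrf3 probes differed from the neighbourhood by -0.05 ± 0.05. The probe before the run, at 5202542, measured -0.60, -0.33, 0.00 and -0.30, and the probe after it, at 5237266, measured -0.02, -0.29, 0.05 and 0.10. The lowest of all 88 probes, at -0.78 in tumour 239, was another Znrf3 probe outside the run.

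Among the 70 runs of 3 consecutive probes within the 9 genes, this was the only one with a mean of -0.5 or less in all 4 tumours. Over the autosomes 1.13% of 161293 such runs met that rule. The run was chosen for its values, so it has no test. It no longer met the rule with normexp, at a mean of -0.41, or after a lowess correction for brightness, where its mean was -0.54 but tumour 239 lay at -0.497. The Znrf3 run still met the rule with the probe GC trend removed, at a mean of -0.60. With normexp 1.94% of the autosomal runs met the rule. In that setting a run of 3 Gsk3b probes at chr16:38195076-38214273 met it in place of the Znrf3 run, with a mean of -0.69. That run includes the Gsk3b probe printed above, which measured 0.43, 0.53, 1.12 and 0.02 on processed signals and -0.83, -0.73, -0.74 and -0.79 with normexp. It holds both probes of the 88 that were not well above background on all arrays, so their ratios are uncertain.

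**Figure D3:**
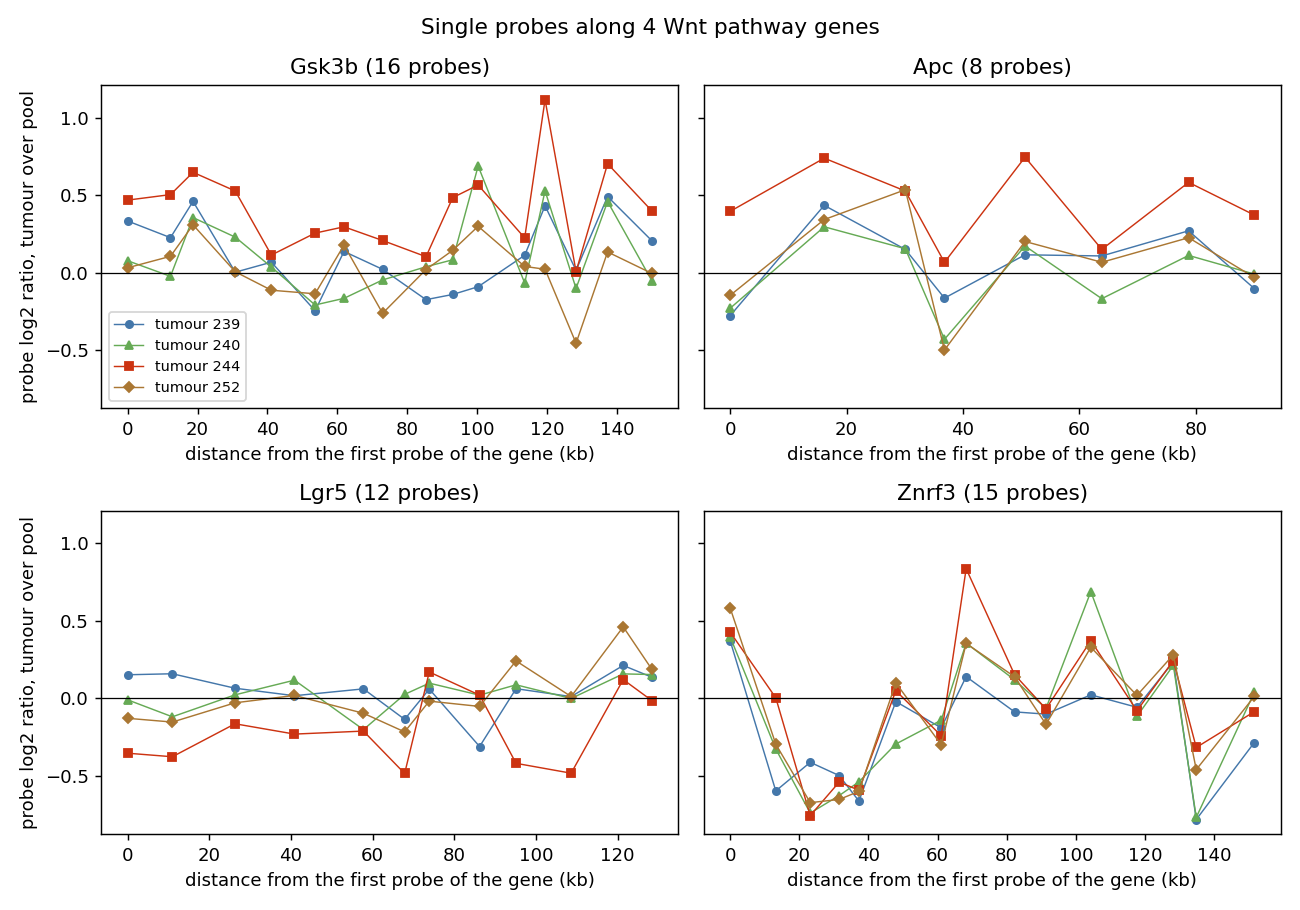
Log2 ratio of single probes of Znrf3, Gsk3b, Apc and Lgr5 along each gene, by tumour, against distance from the first probe. The 3 low Znrf3 probes lie at similar depth in all 4 tumours, whereas in Apc and Gsk3b most probes of tumour 244 lie above those of the other tumours.

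Part of the deviation of single probes recurred between arrays. The deviation of the 88 probes from their neighbourhoods correlated between pairs of tumours with Pearson's r between 0.69 and 0.82 (88 probes, sharing the pool, the slide and the probe sequences), and its correlation with probe GC content was -0.15. Of the 88 probes 26 lay below their neighbourhood in all 4 tumours and 17 above, and the others changed side between tumours. In Znrf3 9 of 15 lay below and 4 above, and in Axin2 0 of 3 lay on the same side in all 4. The same shares over all autosomal probes were not computed, so the counts are not read as a trait of these genes. Deviations shared by all arrays include any of the common pool, which cannot be told apart from those of the tumours.

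On processed signals no probe of the 9 genes reached -1 in any tumour. The lowest values were -0.78, -0.77, -0.76 and -0.67 in tumours 239, 240, 244 and 252. Over all autosomal probes 1.17%, 1.14%, 1.59% and 1.11% were at or below -1. At or below -0.5 were 3, 6, 6 and 5 of the 88, or 3.41%, 6.82%, 6.82% and 5.68%, against 6.96%, 7.37%, 11.7% and 9.12% of all autosomal probes. At or above 0.5 were 0, 4, 12 and 3 of the 88, or 0%, 4.55%, 13.6% and 3.41%, against 3.41%, 6.52%, 11.3% and 9.23% of all autosomal probes. The 12 probes of tumour 244 are thus near the background. With normexp the Znrf3 probe at 5324155 measured -1.13, -1.14, -0.82 and -0.96 in tumours 239, 240, 244 and 252, so it passed -1 in tumours 239 and 240. The share of all autosomal probes past -1 with normexp was not computed, so these values have no background and are not read as a trait of Znrf3. A loss shorter than the median probe spacing of 10.8 kb could lie between probes and was not detectable here. Of the 88 probes 86 were well above background in both colours on all arrays.

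A wider list of 94 pathway genes gave 77 with a probe. The 17 without one included the ligand Wnt1, the hepatocyte target Glul and the growth regulator Myc, and they were not analysed here. Against 0, 14 of the 77 passed above and 7 below, which is 27.3% beside 38.9% of all genes. Against their neighbours 23 passed above and 23 below, which is 59.7% beside 48.7% of all genes. Without tumour 252 these shares were 26.0% of the 77 and 32.3% of all genes against neighbours, and 14.3% and 25.9% against 0. Without tumour 239, 240 or 244 the share against neighbours was 55.8%, 27.3% and 18.2% of the 77, beside 52.8%, 32.7% and 31.4% of all genes, so the order of list and background turned with the tumours included. The median difference from neighbours was 0.04 over the 77 genes and 0.01 over all genes. In tumour 244, 15 of the 77 lay in gained stretches and 18 in lost ones, or 19.5% and 23.4% beside 20.1% and 26.4% of all genes.

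By role, 11 of 17 ligands, 5 of 8 receptors, 5 of 9 antagonists, 8 of 13 further cytoplasmic genes, 10 of 14 nuclear genes, 2 of 6 genes of R-spondins and LGR receptors, 0 of 1 secretion gene and 5 of 9 targets passed the test against neighbours in either direction, beside 48.7% of all genes. These counts rest on all 4 tumours, and as given above the share of the list fell to between 18.2% and 27.3% without tumour 240, 244 or 252. Among those with at least 3 probes, the lower ones of largest size were Nkd2, which binds Dishevelled, at -0.35 ± 0.20, the TCF factor Tcf7 at -0.25 ± 0.13 and the casein kinase Csnk1d at -0.25 ± 0.18. Csnk1e, a related kinase, lay at -0.21 ± 0.09 and the ligands Wnt5b and Wnt8b at -0.20 ± 0.11 and -0.18 ± 0.07. Higher than their neighbours were the ligand Wnt3 at 0.25 ± 0.05, Lef1, the partner of beta-catenin related to Tcf7, at 0.20 ± 0.09, and the target Tnfrsf19 at 0.19 ± 0.11. Tle1, a co-repressor, lay at 0.18 ± 0.08, the ligand Wnt7a at 0.17 ± 0.12 and the receptor Fzd6 at 0.17 ± 0.13 (SD, n = 4 throughout). The limma adjusted p of these 12 ran between 0.00293 for Wnt3 and 0.0421 for Fzd6. Without tumour 252 it ran between 0.0118 for Csnk1d and 0.129 for Fzd6, and 5 of the 12 passed, namely Csnk1d, Csnk1e, Tcf7, Wnt3 and Lef1.

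Some stretches were called in several tumours. The neighbourhood of Tle1 on chromosome 4 measured -0.32, -0.25, -0.45 and -0.26 in tumours 239, 240, 244 and 252, which is a lost stretch in all 4. On chromosome 15 that of Fzd6 measured 0.30, 0.22, 0.41 and 0.34 and that of Wnt7b 0.28, 0.21, 0.41 and 0.34, gained in all 4. The stretches around Csnk1e and the co-activator gene Ep300 were gained in 3 of 4, at means of 0.29 and 0.27. Over the 4 tumours the own probes averaged -0.13 at Tle1, 0.49 at Fzd6, 0.16 at Wnt7b, 0.07 at Csnk1e and 0.18 at Ep300. None of the 9 genes had a neighbourhood called in more than 1 tumour. The share of all genes called in several tumours was not computed, so these counts have no background and are no result about the pathway.

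**Figure D4:**
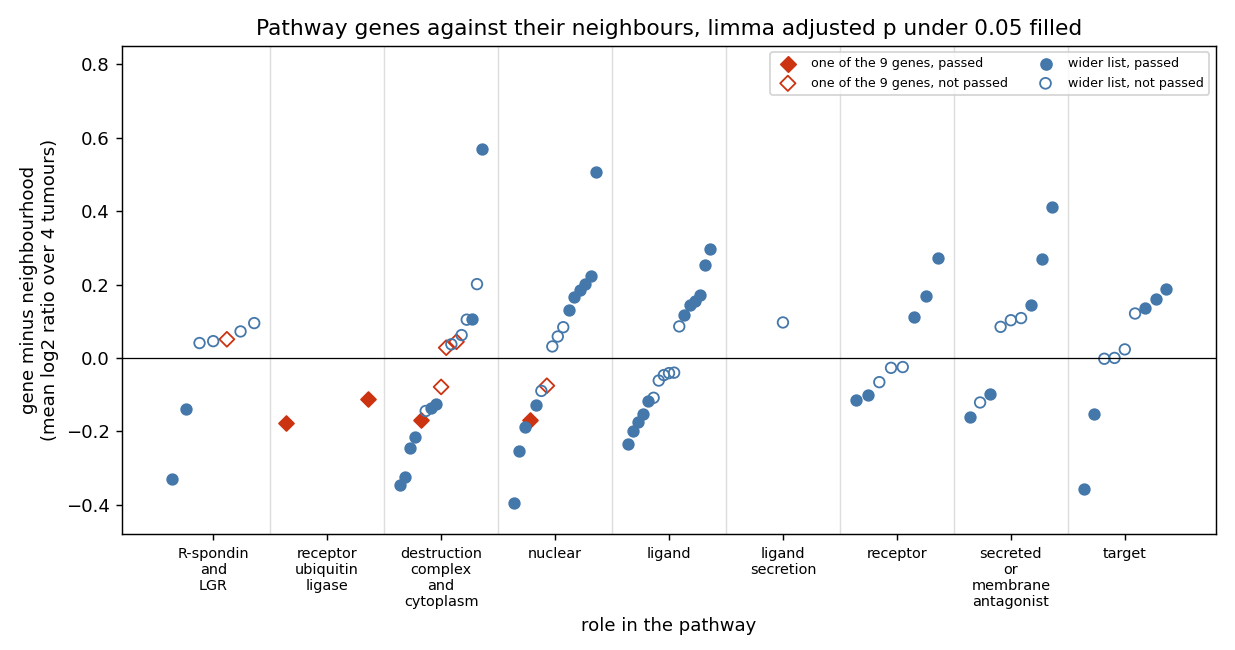
Mean difference from neighbours over 4 tumours for the 9 genes and the 77 further pathway genes with a probe, by role, with genes that passed the limma test marked. Both directions occur in most roles, and Nkd2 lies lowest among the genes named in the text at -0.35.

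The neighbourhood profile over the 4 tumours most like that of each gene was sought in the wider list, as the root mean square difference. Gsk3b was nearest to Dvl3 on the same chromosome 16 (0.022) and Ctnnb1 to Tle3 on chromosome 9 (0.017). Apc was nearest to Crebbp on chromosome 16 (0.033) and Lgr5 to Wnt2 on chromosome 6 (0.012). Axin2 was nearest to Wnt9b (0.021), also on chromosome 11. Znrf3 was nearest to Kremen1 (0.010), which lies 35 kb away, so their neighbourhoods hold largely the same probes and the match follows from position. Rnf43 was nearest to Wnt8b (0.011), Axin1 to Wnt3 (0.025) and Tcf7l2 to Csnk1d (0.027), each on another chromosome.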

How the data were processed

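Liver tumour DNA of 4 mice (Cy5) and pooled wild-type liver DNA (Cy3) were compared on 2-colour Agilent arrays, per the labels. Images were read with Agilent Feature Extraction 12.0.0, per the submitters' processing notes. Per the file headers, processed intensity values had background subtracted and dyes normalised. The authors' value table holds a deposited log10 ratio of tumour over pool. Flags for outliers and for signal above background came with each spot, per the file headers. Coordinates are mm9, as the files give them.

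Control and outlier spots were left out, spots of a probe averaged, and the log2 ratio computed from the deposited intensity was centred on each array's autosomal median without loess or quantile normalisation. Genes were means of their probes. The neighbourhood held all other probes within 1 Mb. limma 3.58.1 in R 4.3.3 tested gene levels against 0 and against neighbours, with Benjamini-Hochberg adjustment over all 17962 autosomal genes. Other steps used Python 3.11.15, pandas 2.3.3 and numpy 2.4.6.

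Tested on simulated data with 17962 genes, limma against 0 called 81 of 100 genes shifted by 0.4 but 3 of 100 shifted by 0.2, and against neighbours 91 and 4 of 100. At most 1 of 17762 unshifted genes was called. The simulation removed offsets shared by the arrays, so it does not bear on those. Only 100 genes were shifted at each size, whereas 48.7% of genes passed against neighbours in the data. The adjusted threshold was therefore stricter in the simulation, and its shares do not give the sensitivity of the tests reported here.

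All 9 genes are named. Of the wider list, genes with at least 3 probes that passed against neighbours (at most 12 by size), genes whose neighbourhood was called the same way in at least 3 tumours (at most 8), and the nearest gene to each of the 9 are named; Wnt1, Glul and Myc were named as examples of genes without a probe. The 9 genes and the wider list were chosen with earlier results of these data known. Alternatives covered background correction, the authors' value table, brightness, probe filters, summary, window, centring, thresholds, robust limma and leaving out each tumour.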

Additional observations from a re-analysis of the deposited data

Results flagged for a closer look

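In 27 groups of 4 tumours tested, 4 held a tumour far from the others, where about 1 in 20 independent groups would by chance. The groups were not independent, since gene levels, neighbourhood levels and their differences came from the same genes and the same 4 arrays. The count therefore cannot be set against 1 in 20. The share over all genes is not given here, so the count is no result about the pathway. The gene level of Lgr5 in tumour 244 was -0.20, and its neighbourhood level in the same tumour was -0.26, both well below the other tumours. The neighbourhood level of Apc in tumour 244 was 0.36, well above the other tumours. The difference between Znrf3 and its neighbourhood was -0.21 in tumour 239, lower than in the other tumours, which lay within 0.01 of each other. The values of Lgr5 and Apc share tumour 244, whose whole chromosomes 10 and 18 averaged -0.25 and 0.34.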

How the results depend on the processing

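No limma call among the 9 genes held under every alternative. Against 0, the count of genes below fell to 0 with mode centring, with running-median centring and with only genes of 3 or more probes, and ran between 0 and 1 when each tumour was left out. Over all genes the count below was 3177 in the main setting, 3127 with mode centring, 3110 with running-median centring and 4846 with normexp. With 3 or more probes the counts were 1629 above and 1279 below. These are out of 6009 genes with 3 to 9 probes and 2381 with 10 or more. Leaving out each tumour gave between 2410 and 3628 above, and between 2165 and 3126 below. Signs turned for Rnf43 (0.0800) and Gsk3b (-0.0311) with normexp and for Axin2 with medians (-0.0156). They also turned for Axin2 without tumour 239, in a range of -0.0150 to 0.0656, and for Lgr5 without tumour 244, in a range of -0.0506 to 0.0304.

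Against neighbours, normexp gave 1 gene above, Tcf7l2 at 0.0855 (limma, adjusted p = 0.0327), and turned Gsk3b (-0.15; limma, adjusted p = 0.00655), Lgr5 (-0.0125), Rnf43 (0.0348) and Axin2 (0.0256). Gsk3b also turned with lowess (-0.0048) and with probes well above background (-0.0149), as did Lgr5 (-0.0214) and Apc (-0.00051) with neighbours within 0.5 Mb. Medians of probes left 2 genes below, and leaving out each tumour left between 2 and 3. Over all genes, 3 or more probes gave 2394 above and 2003 below, and leaving out each tumour gave between 3004 and 4821 above and between 2639 and 4654 below. Gained pairs numbered 11 at a threshold of 0.1. Lost pairs numbered 2 at 0.1, 0 at 0.3, 0 within 0.5 Mb and 2 with running-median centring. Pairs past the difference between tumours numbered 5 at 0.2 and 1 at 0.4. Fewer genes or tumours entered the probe-minimum and left-out settings; the cause of the other changes was not tested. Removing the GC trend, like the running-median centring, was chosen after the data were seen. No paired analysis was possible because each tumour was hybridised against the same pool.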
